A study of Mus musculus with 15 samples.

Results

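The genes that copy DNA and supply its building blocks were examined in CD4+ T cells with and without AMPKα1, the catalytic subunit of AMP-activated protein kinase encoded by Prkaa1. The group holds 48 genes, chosen by symbol for their role in origin licensing (10), helicase activation (8), DNA synthesis by polymerases and primase (8), clamp loading, strand joining and single-strand binding (10), nucleotide supply (5), chromatin assembly and maintenance (3) and G1/S control (4). All 48 were found among the 55421 genes in the count files, of which 39155 had a read in any sample. Naive CD4+ T cells of young adult C57BL/6 donor mice were transferred into Rag2-/- recipients, which have no T or B cells of their own, and donor cells were taken from spleen and mesenteric lymph nodes (mLN) 6 weeks later, in a model of transfer colitis. WT donors carried floxed Prkaa1 alleles without Cre and KO donors the same alleles with CD4-Cre, which is active from the CD4+CD8+ thymocyte stage, so that the deletion preceded the transfer. All 15 samples share the floxed allele and the lymphopenic host, and the Cre was present in KO samples only. The groups were WT spleen (n = 4), KO spleen (n = 4), WT mLN (n = 3, the study having left out 1 sample after quality control) and KO mLN (n = 4).

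A dividing cell first loads the MCM helicase onto replication origins, then activates it with CDC45, GINS and the CDC7 kinase, and then copies each strand with the primase and the DNA polymerases, which are held on the template by the PCNA clamp. Ribonucleotide reductase, thymidylate synthase and thymidine kinase provide the deoxynucleotides for this step. Many of these genes are transcribed by E2F factors as a cell passes from G1 into S phase, and T cells that expand after antigen contact or in an empty host are known for high levels of them.

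Levels are given as CPM, the reads of a gene per 1000000 reads counted on genes in that sample. Values of a group are listed in the order of the replicate numbers, which are 1 to 4 in all groups except WT mLN, which has 1, 2 and 4. Each sample had 9363940 to 11283439 reads on genes. Prkaa1 itself stood at 46.3 to 60.9 CPM in the WT samples and 18.4 to 32.2 CPM in the KO samples, with no overlap. These counts per gene can include reads from exons that the deletion leaves, and the source of the KO reads was not tested. The 10 CD4 T cell markers summed to 7903 to 9982 CPM in WT and 9146 to 10540 CPM in KO samples, and the B cell defining gene Ms4a1 was at or near 0 in all groups. The 8 B cell and plasma cell markers summed to 1.99 to 5.18 CPM in spleen and 3.21 to 9.71 CPM in mLN. In edgeR's test, 1 of the 2 tested was called higher in KO mLN than in WT mLN (log2 fold change 4.40), where 0.348% of all genes were called higher. The other of the 2 markers was lower and not called. Between organs, 1 of 2 tested was called higher in KO mLN than in KO spleen, where 11.4% of all genes were called higher. The part of these markers in the results was not tested. The 8 erythroid markers, mostly globins, summed to 1899 and 919 CPM in WT spleen replicates 3 and 4 and 799.5 CPM in WT mLN replicate 4, against 18.9 to 126 CPM in the other samples. The 10 myeloid markers summed to 236 to 683 CPM in spleen and 96.1 to 244 CPM in mLN. The 6 CD8 T and NK markers summed to 49.4 to 73.8 CPM in WT and 90.9 to 142 CPM in KO samples, of which most was Eomes. The study describes the RNA samples of a group as separate mice of 1 experiment, so p-values measure the spread between mice within that experiment.

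Summed over the 48 genes, the highest level was found in KO cells of the mLN. The sum was 3331, 3543, 3383 and 2647 CPM in WT spleen, 3734, 3304, 3110 and 3172 CPM in KO spleen, 3361, 3014 and 3014 CPM in WT mLN and 4014, 3574, 3724 and 4058 CPM in KO mLN. All 4 KO mLN samples lay above all 3 WT mLN samples, whereas the spleen samples of the genotypes overlapped. WT spleen replicate 4 was the lowest of its group for 38 of 48 members and the lowest of all 15 samples for 27, and KO spleen replicate 1 was the highest of its group for 38. Of the 4 group means, that of KO mLN was the highest for 35 of 48 members. In bulk samples, fewer cells of a type and less RNA per cell cannot be told apart, and the same holds for a share of cells in S phase.

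**Figure D1:**
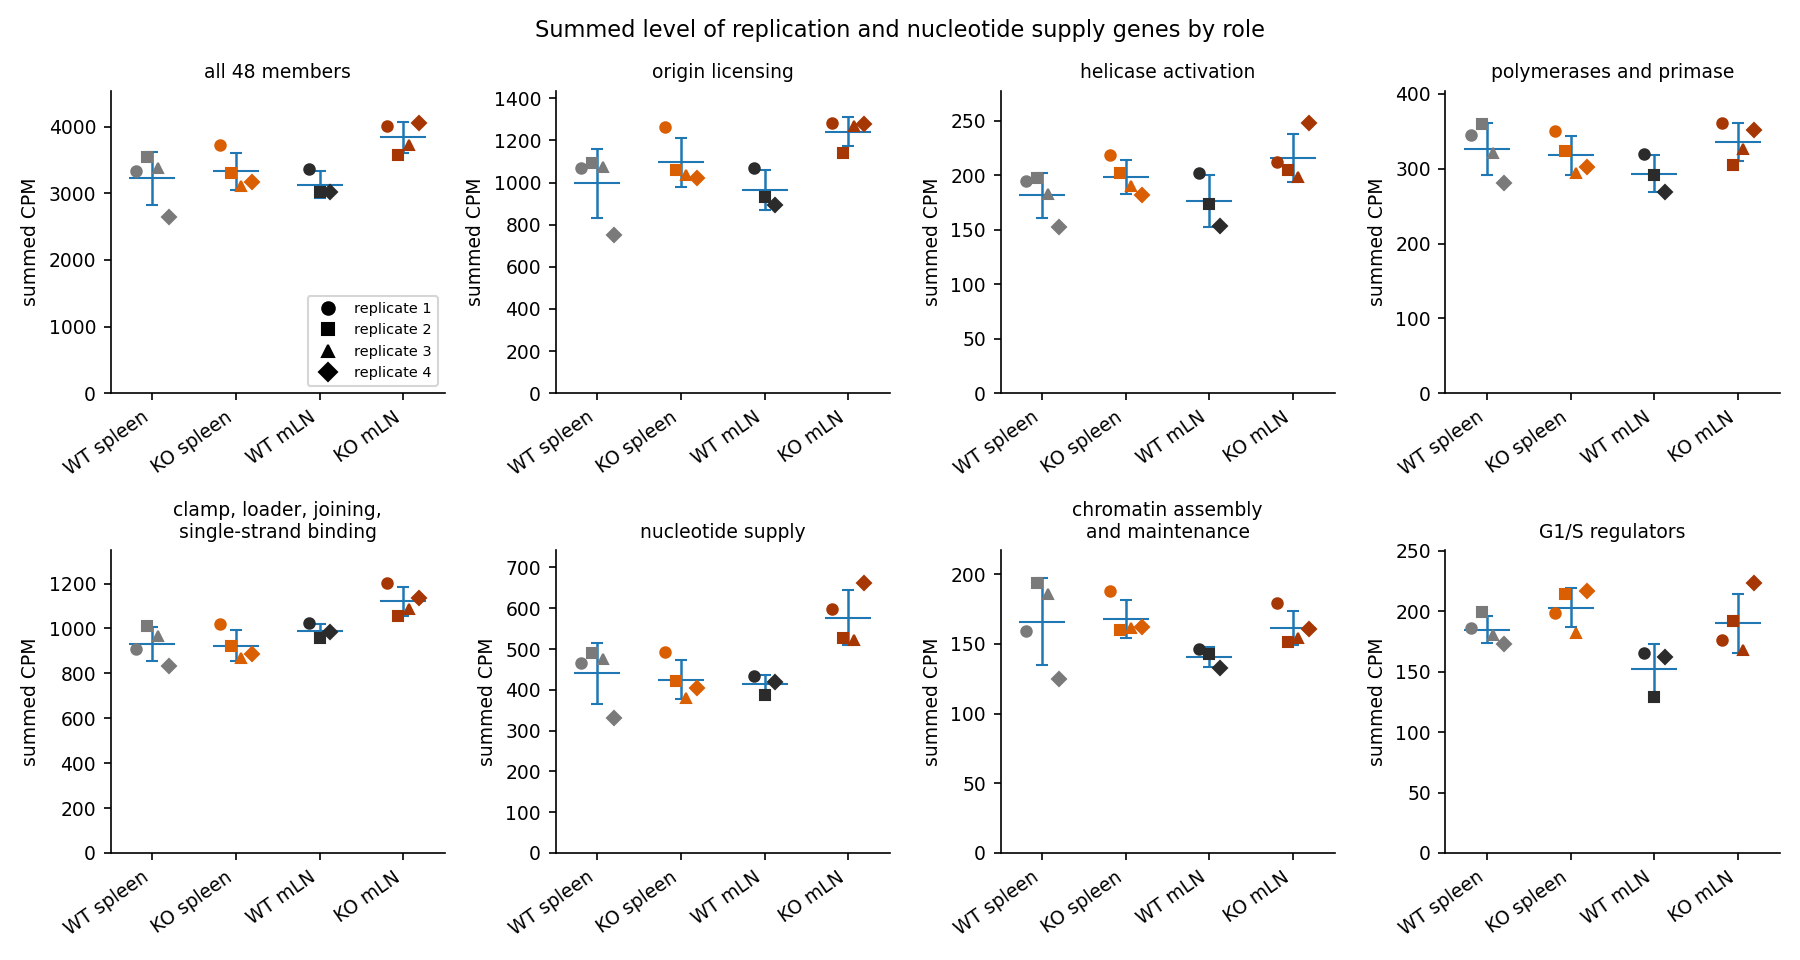
Summed CPM (y axis, linear, from 0) of all 48 members and of each of 7 roles in the 4 groups; points are samples, with the shape giving the replicate number, and the blue line and bars give the mean and SD. The 4 KO mLN samples lie above the WT mLN samples in every panel except helicase activation and polymerases and primase, and WT spleen replicate 4 lies low in most panels.

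Promoter sequences are shown for the 5 members with the smallest p between KO and WT in mLN, to set the DNA words bound by E2F and NF-Y factors beside the levels. RefSeq windows on GRCm38.p6, from 250 bases before to 50 bases after the start, were matched to 40 of the 48 members, with 48 windows in all. One of the E2F words TTTCCCGC, TTTGGCGC, TTTCGCGC and TTTGCCGC was found on either strand in the windows of 15 of the 40 genes (37.5%). Counted by window, 31.2% of the member windows held one, against 2.26% of all 32851 windows and 4.13% of the 10956 windows of genes with at least 10 reads in every sample. CCAAT, the core of the NF-Y site, was found in 54.2% of the member windows, 37.4% of all windows and 38.1% of those of the expressed genes. The words TTTGAA and TTCGAA, used as the CHR element of late cell cycle genes, were found in 22.9%, 19.2% and 14.4%. The E2F words were found in 7 licensing genes (Orc1, Cdc6, Cdt1, Mcm3, Mcm5, Mcm6 and Mcm7) and in none of the 5 nucleotide supply genes. A match is a description of the letters and does not show binding. Capitals mark the E2F words and CCAAT, read on either strand, in the 160 bases before the start. The Mcm5 window is chr8:75109349-75109508 on the plus strand, that of Mcm6 chr1:128359706-128359865 on the minus strand, that of Rrm1 chr7:102441535-102441694 on the plus strand, that of Rrm2 chr12:24708094-24708253 on the plus strand and that of Tyms chr5:30073626-30073785 on the minus strand.
Mcm5: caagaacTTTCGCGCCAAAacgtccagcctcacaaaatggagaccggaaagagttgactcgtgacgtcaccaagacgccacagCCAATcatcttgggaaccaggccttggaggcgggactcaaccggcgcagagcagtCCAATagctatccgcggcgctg
Mcm6: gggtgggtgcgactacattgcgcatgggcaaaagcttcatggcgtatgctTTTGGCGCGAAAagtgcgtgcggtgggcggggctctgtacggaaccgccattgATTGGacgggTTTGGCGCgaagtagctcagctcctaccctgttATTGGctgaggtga
Rrm1: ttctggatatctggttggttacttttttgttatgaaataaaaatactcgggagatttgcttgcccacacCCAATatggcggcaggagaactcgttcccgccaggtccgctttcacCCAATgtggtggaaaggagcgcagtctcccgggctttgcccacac
Rrm2: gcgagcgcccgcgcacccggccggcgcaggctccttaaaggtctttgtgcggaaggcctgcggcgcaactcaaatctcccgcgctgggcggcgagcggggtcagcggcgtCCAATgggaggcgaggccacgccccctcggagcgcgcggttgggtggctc
Tyms: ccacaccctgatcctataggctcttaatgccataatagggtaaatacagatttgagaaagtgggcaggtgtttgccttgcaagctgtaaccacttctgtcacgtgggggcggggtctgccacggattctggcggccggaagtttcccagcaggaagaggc
Mcm5 and Mcm6 hold overlapping E2F words and CCAAT within these bases, and Rrm1 and Rrm2 hold CCAAT without an E2F word, and Tyms holds neither.

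Per kilobase of exonic sequence, which allows levels to be compared between genes, the helicase subunit Mcm6 was the most abundant member, with a mean of 69.3 CPM per kb over the 15 samples. It was followed by the single-strand binding subunit Rpa1 at 59.3, the small reductase subunit Rrm2 at 58.7, Mcm4 at 47.2 and the clamp Pcna at 45.2 CPM per kb. The lowest levels on this scale were those of the catalytic subunit of polymerase epsilon, Pole, at 1.45, the helicase activator Mcm10 at 1.67, the transcription factor E2f1 at 1.84 and the origin recognition subunit Orc1 at 1.88 CPM per kb. In reads over all samples, the ring genes Mcm2 to Mcm7 had 13898 to 50651. The factors that load the ring, Orc1, Orc6, Cdc6 and Cdt1, had 1033 to 6437. Per kilobase the gap was narrower in places, with Orc6 at 14.5 and Mcm2 at 18.5 CPM per kb.

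Origin licensing had the highest summed level of the roles in 3 of the 4 groups by mean, the clamp and strand joining genes being higher in WT mLN. Its 10 genes summed to 1069, 1092, 1073 and 752 CPM in WT spleen, 1265, 1060, 1036 and 1020 CPM in KO spleen, 1071, 933 and 893 CPM in WT mLN and 1283, 1141, 1268 and 1276 CPM in KO mLN. The KO mLN sums lay above those of WT mLN, and in spleen the genotypes overlapped. Orc1, which marks origins as the large subunit of the origin recognition complex, was scarce, at 4.82, 5.45, 6.07 and 4.71 CPM in WT spleen, 5.14, 4.83, 5.93 and 5.05 CPM in KO spleen, 9.62, 6.03 and 7.47 CPM in WT mLN and 10.7, 5.14, 5.55 and 11.7 CPM in KO mLN. Its highest values were in mLN replicates 1 and 4, and the genotypes overlapped in both organs. Orc6, the smallest subunit of that complex, stood at 26.6, 33.5, 35.9 and 24.9 CPM in WT spleen, 33.6, 28.5, 30.2 and 30.8 CPM in KO spleen, 40.4, 32.1 and 37.2 CPM in WT mLN and 46.6, 48.8, 39.4 and 47.9 CPM in KO mLN. All KO mLN samples were above all KO spleen samples for Orc6, while KO and WT overlapped in mLN. Cdc6, which recruits the helicase to the origin, stood at 30.4, 26.9, 27.7 and 17.1 CPM in WT spleen, 35.5, 29.3, 30.5 and 26.2 CPM in KO spleen, 34.95, 22.1 and 22.1 CPM in WT mLN and 43.8, 39.7, 35.1 and 45.8 CPM in KO mLN. The lowest KO mLN sample of Cdc6 was just above the highest WT mLN sample, and WT spleen replicate 4 was the lowest of all. Cdt1, the partner of CDC6 in helicase loading and degraded at the onset of S phase, stood at 38.4, 37.3, 30.6 and 30.6 CPM in WT spleen, 37.2, 42.3, 34.5 and 36.5 CPM in KO spleen, 46.4, 50.8 and 46.4 CPM in WT mLN and 49.6, 46.1, 45.9 and 43.6 CPM in KO mLN. Each mLN sample of Cdt1 was above each spleen sample of either genotype, and KO and WT overlapped within each organ.

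Among the helicase subunits themselves, Mcm2 stood at 131, 133, 139 and 90.2 CPM in WT spleen, 179, 145, 137 and 134 CPM in KO spleen, 122, 97.3 and 109 CPM in WT mLN and 118, 111, 135 and 144 CPM in KO mLN. KO spleen replicate 1 was the highest and WT spleen replicate 4 the lowest sample of Mcm2, and the groups overlapped in every comparison. Mcm3 stood at 145, 149, 147 and 101 CPM in WT spleen, 184, 149, 135 and 134 CPM in KO spleen, 139.6, 121 and 141 CPM in WT mLN and 198, 149, 158 and 175 CPM in KO mLN. Its KO mLN samples lay above its WT mLN samples. Mcm5 (ENSMUSG00000005410, chr8:75109569-75128439, plus strand, GRCm38) stood at 106, 104, 96.4 and 60.3 CPM in WT spleen, 138, 109.6, 115 and 103 CPM in KO spleen, 103, 90.2 and 77.3 CPM in WT mLN and 124, 124, 131 and 157 CPM in KO mLN. The 4 KO mLN samples of Mcm5 were above the 3 WT mLN samples, and in spleen WT replicates 1 and 2 reached into the KO range. Mcm6 (ENSMUSG00000026355, chr1:128331590-128359664, minus strand) stood at 328, 327, 335 and 239 CPM in WT spleen, 362, 307, 316 and 315 CPM in KO spleen, 303, 287 and 248 CPM in WT mLN and 352, 340.3, 392 and 402 CPM in KO mLN. As for Mcm5, the mLN genotypes did not overlap. Mcm7 stood at 88.9, 95.9, 80.8 and 62.6 CPM in WT spleen, 95.5, 80.4, 77.2 and 74.2 CPM in KO spleen, 85.2, 86.8 and 80.4 CPM in WT mLN and 119.6, 99.4, 110.2 and 96.2 CPM in KO mLN. It was higher in each KO mLN sample than in each sample of WT mLN and of KO spleen. A few of its exonic bases are shared with the microRNAs Mir25 and Mir93 on the same strand. Mcm4, the remaining subunit, ranged over 122 to 220.3 CPM with overlap in every comparison.

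The helicase activation genes were expressed at lower levels. They summed to 194, 197, 183 and 152 CPM in WT spleen, 218, 202, 190.3 and 182 CPM in KO spleen, 202, 173 and 154 CPM in WT mLN and 212, 205, 198 and 248 CPM in KO mLN, and the groups overlapped in both organs. Mcm10, which helps to start unwinding, stood at 14.03, 13.99, 11.9 and 7.12 CPM in WT spleen, 18.3, 12.3, 10.2 and 9.57 CPM in KO spleen, 14.1, 6.62 and 13.4 CPM in WT mLN and 17.4, 12.03, 12.3 and 19.4 CPM in KO mLN. Cdc45, the subunit that completes the active helicase, stood at 15.6, 15.7, 11.2 and 7.62 CPM in WT spleen, 18.6, 14.8, 15.4 and 12.1 CPM in KO spleen, 19.3, 9.69 and 12.1 CPM in WT mLN and 13.1, 16.5, 13.4 and 20.7 CPM in KO mLN. Both varied more than 2-fold within single groups and overlapped in all comparisons. Gins2 (ENSMUSG00000031821, chr8:120578633-120589304, minus strand), a subunit of the 4-part GINS complex, stood at 44.3, 36.4, 42.7 and 30.3 CPM in WT spleen, 50.6, 50.9, 47.4 and 43.6 CPM in KO spleen, 26.9, 20.7 and 25.8 CPM in WT mLN and 32.2, 31.2, 35.1 and 35.8 CPM in KO mLN. It was lower in mLN than in spleen without overlap within each genotype, and within mLN each KO sample was above each WT sample. Exons of Gse1 on the opposite strand overlap 67.3% of its exonic bases, and the sources do not say whether counting used the strand, so reads of the neighbouring gene cannot be told apart. Gins4, another GINS subunit, stood at 36.01, 35.2, 36.9 and 35.6 CPM in WT spleen, 36.2, 36.8, 32.9 and 36.6 CPM in KO spleen, 46.3, 39.6 and 36.6 CPM in WT mLN and 41.5, 46.8, 51.03 and 41.6 CPM in KO mLN. Its spleen values were tight and were all below those of KO mLN. Cdc7, the kinase that fires licensed origins, stood at 34.6, 39.2, 38.8 and 26.8 CPM in WT spleen, 39.1, 40.1, 36.04 and 34.5 CPM in KO spleen, 31.9, 34.5 and 22.1 CPM in WT mLN and 40.6, 38.3, 40.03 and 59.2 CPM in KO mLN. The KO mLN samples of Cdc7 were above those of WT mLN, with replicate 4 far above the rest. Gins1, Gins3 and Dbf4, the activator of CDC7, ranged over 3.19 to 10.1 CPM, 15.8 to 32.7 CPM and 18.7 to 36.3 CPM and overlapped in every comparison.

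Polymerase and primase genes summed to 345, 360, 322 and 280.5 CPM in WT spleen, 351, 324, 294 and 302 CPM in KO spleen, 319, 291 and 269.5 CPM in WT mLN and 361, 305, 326 and 352 CPM in KO mLN, with overlap in both organs. Pola1, the catalytic subunit of polymerase alpha that starts each strand, stood at 55.3, 51.7, 47.8 and 39.6 CPM in WT spleen, 51.98, 46.1, 44.4 and 47.1 CPM in KO spleen, 50.5, 32.8 and 39.3 CPM in WT mLN and 79.1, 43.8, 53.1 and 46.6 CPM in KO mLN. Prim1 (ENSMUSG00000025395, chr10:128015168-128030037, plus strand), the primase subunit that lays down the RNA primer, stood at 32.5, 31.7, 29.7 and 18.8 CPM in WT spleen, 36.02, 30.03, 32.5 and 28.1 CPM in KO spleen, 42.4, 32.6 and 25.9 CPM in WT mLN and 53.96, 45.5, 46.2 and 60.6 CPM in KO mLN. Pola1 overlapped throughout, and KO mLN replicate 1 was its highest sample, whereas each KO mLN sample of Prim1 was above each sample of every other group. Pold1 (ENSMUSG00000038644, chr7:44532746-44548849, minus strand), the catalytic subunit of the lagging strand polymerase delta, stood at 83.3, 88.3, 75.01 and 63.97 CPM in WT spleen, 88.2, 81.5, 70.7 and 75.6 CPM in KO spleen, 55.7, 48.05 and 39.4 CPM in WT mLN and 54.3, 56.6, 56.5 and 65.5 CPM in KO mLN. It fell below all spleen samples in WT mLN, and in KO mLN below all KO spleen samples. Pold2, the accessory subunit of the same polymerase, stood at 68.6, 65.4, 68.4 and 66.3 CPM in WT spleen, 58.9, 61.3, 51.4 and 56.99 CPM in KO spleen, 68.05, 72.4 and 68.8 CPM in WT mLN and 58.9, 60.4, 53.01 and 67.7 CPM in KO mLN. Pold2 was the one member whose KO samples lay below the WT samples in both organs. Pole, the catalytic subunit of the leading strand polymerase, was scarce, at 19.5, 26.6, 16.8 and 13.6 CPM in WT spleen, 22.6, 17.2, 13.7 and 12.8 CPM in KO spleen, 12.8, 13.2 and 11.2 CPM in WT mLN and 16.2, 10.9, 24.9 and 11.2 CPM in KO mLN. KO mLN replicate 3 stood apart from its group for Pole, and only the WT mLN and WT spleen samples did not overlap. Pola2, Prim2 and Pole2 ranged over 46.9 to 62.8 CPM, 18.1 to 35.2 CPM and 5.53 to 14.1 CPM, and of these only Prim2 had KO mLN samples all above WT mLN samples.

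The clamp, its loader and the genes that join and protect strands summed to 909.6, 1011, 965 and 834 CPM in WT spleen, 1022, 922, 866 and 884 CPM in KO spleen, 1023, 957 and 984 CPM in WT mLN and 1204, 1054, 1088 and 1135 CPM in KO mLN. Each KO mLN sum was above each WT mLN sum and above each KO spleen sum. Pcna, the sliding clamp, stood at 107, 115, 116 and 81.02 CPM in WT spleen, 106, 95.98, 100 and 102 CPM in KO spleen, 115, 101 and 86.9 CPM in WT mLN and 153, 100, 107 and 141 CPM in KO mLN. Rfc3, a subunit of the clamp loader, stood at 23.1, 26.5, 24.5 and 14.1 CPM in WT spleen, 29.7, 28.3, 24 and 25.8 CPM in KO spleen, 24.1, 26.5 and 29.8 CPM in WT mLN and 27.5, 27.6, 32.3 and 43.1 CPM in KO mLN. Both overlapped between genotypes within each organ and between organs within each genotype, and WT spleen replicate 4 was the lowest sample of both. Fen1, the nuclease that trims the flaps of Okazaki fragments, stood at 103, 104, 92.8 and 90.5 CPM in WT spleen, 95.2, 79.8, 73.7 and 68.5 CPM in KO spleen, 92.5, 91.5 and 99.3 CPM in WT mLN and 102, 79.5, 89.7 and 98.3 CPM in KO mLN. In spleen only KO replicate 1 of Fen1 reached into the WT range. Opposite-strand exons of Tmem258 and Gm10143 overlap 84.2% of its exonic bases, so its counts are uncertain in the same way as those of Gins2. Lig1, the ligase that joins the fragments, stood at 45.3, 57.8, 56.04 and 32.8 CPM in WT spleen, 60.6, 47.5, 49.7 and 47.2 CPM in KO spleen, 61.8, 48.8 and 50.2 CPM in WT mLN and 82.2, 65.7, 73.6 and 64.8 CPM in KO mLN. Each KO mLN sample of Lig1 was above each sample of the other groups. Rpa2, a subunit of the single-strand binding complex, stood at 94.2, 128, 135 and 83.9 CPM in WT spleen, 109, 96.1, 91.5 and 105 CPM in KO spleen, 140, 114 and 116 CPM in WT mLN and 138, 109, 133 and 121 CPM in KO mLN. Rpa1, its large subunit, stood at 289, 312, 285 and 313 CPM in WT spleen, 337, 323, 289 and 298 CPM in KO spleen, 328, 306 and 358 CPM in WT mLN and 386, 386, 377 and 370.2 CPM in KO mLN. For both Rpa genes the KO mLN samples were above the KO spleen samples, and for Rpa1 also above the WT mLN samples. The loader subunits Rfc1, Rfc2, Rfc4 and Rfc5 ranged over 63.8 to 90.6 CPM, 78.01 to 123 CPM, 24.8 to 39.9 CPM and 46.04 to 70.9 CPM, and of these only Rfc1 had KO mLN samples all above WT mLN samples.

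Nucleotide supply was the role with the largest median difference between KO and WT in mLN. Its 5 genes summed to 467, 491, 475 and 329.8 CPM in WT spleen, 492, 421, 380.5 and 406 CPM in KO spleen, 434, 387 and 419.6 CPM in WT mLN and 598, 526, 521 and 663 CPM in KO mLN. The lowest KO mLN sum was above every sum of the other groups. Rrm1 (ENSMUSG00000030978, chr7:102441695-102469771, plus strand), the large subunit of ribonucleotide reductase, stood at 125, 132, 122 and 83.9 CPM in WT spleen, 133, 109, 97.1 and 103 CPM in KO spleen, 119, 111 and 103 CPM in WT mLN and 161, 139, 148 and 163 CPM in KO mLN. Rrm2 (ENSMUSG00000020649, chr12:24708241-24714146, plus strand), the small subunit whose level limits the enzyme, stood at 181, 187, 179 and 114 CPM in WT spleen, 179.8, 148, 112 and 130.1 CPM in KO spleen, 146, 118 and 136 CPM in WT mLN and 211, 189, 163 and 247 CPM in KO mLN. Tyms (ENSMUSG00000025747, chr5:30058202-30073617, minus strand), which makes thymidylate, stood at 68.1, 65.5, 65.9 and 53.9 CPM in WT spleen, 73.9, 59.9, 58.5 and 60.97 CPM in KO spleen, 59.6, 58.7 and 65.3 CPM in WT mLN and 91.4, 75.7, 82.5 and 96.3 CPM in KO mLN. All 3 had KO mLN samples above all WT mLN samples and spleen samples that overlapped between genotypes, and for Rrm1 and Tyms the KO mLN samples were above every sample of the other groups. Dut, the dUTPase that keeps uracil out of DNA, stood at 66.4, 70.3, 78.6 and 56.2 CPM in WT spleen, 76.02, 77.04, 84.1 and 84.2 CPM in KO spleen, 78.96, 72.3 and 86.8 CPM in WT mLN and 98.6, 96.2, 93.7 and 111 CPM in KO mLN. Its KO mLN samples were also above every other sample. Tk1, the salvage kinase for thymidine, stood at 27.01, 35.7, 29.97 and 21.8 CPM in WT spleen, 28.8, 26.99, 28.4 and 26.9 CPM in KO spleen, 29.5, 27.5 and 28.8 CPM in WT mLN and 36.6, 26.1, 33.8 and 45.6 CPM in KO mLN. Tk1 overlapped in all comparisons, KO mLN replicate 2 being the lowest of the mLN samples.

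**Figure D2:**
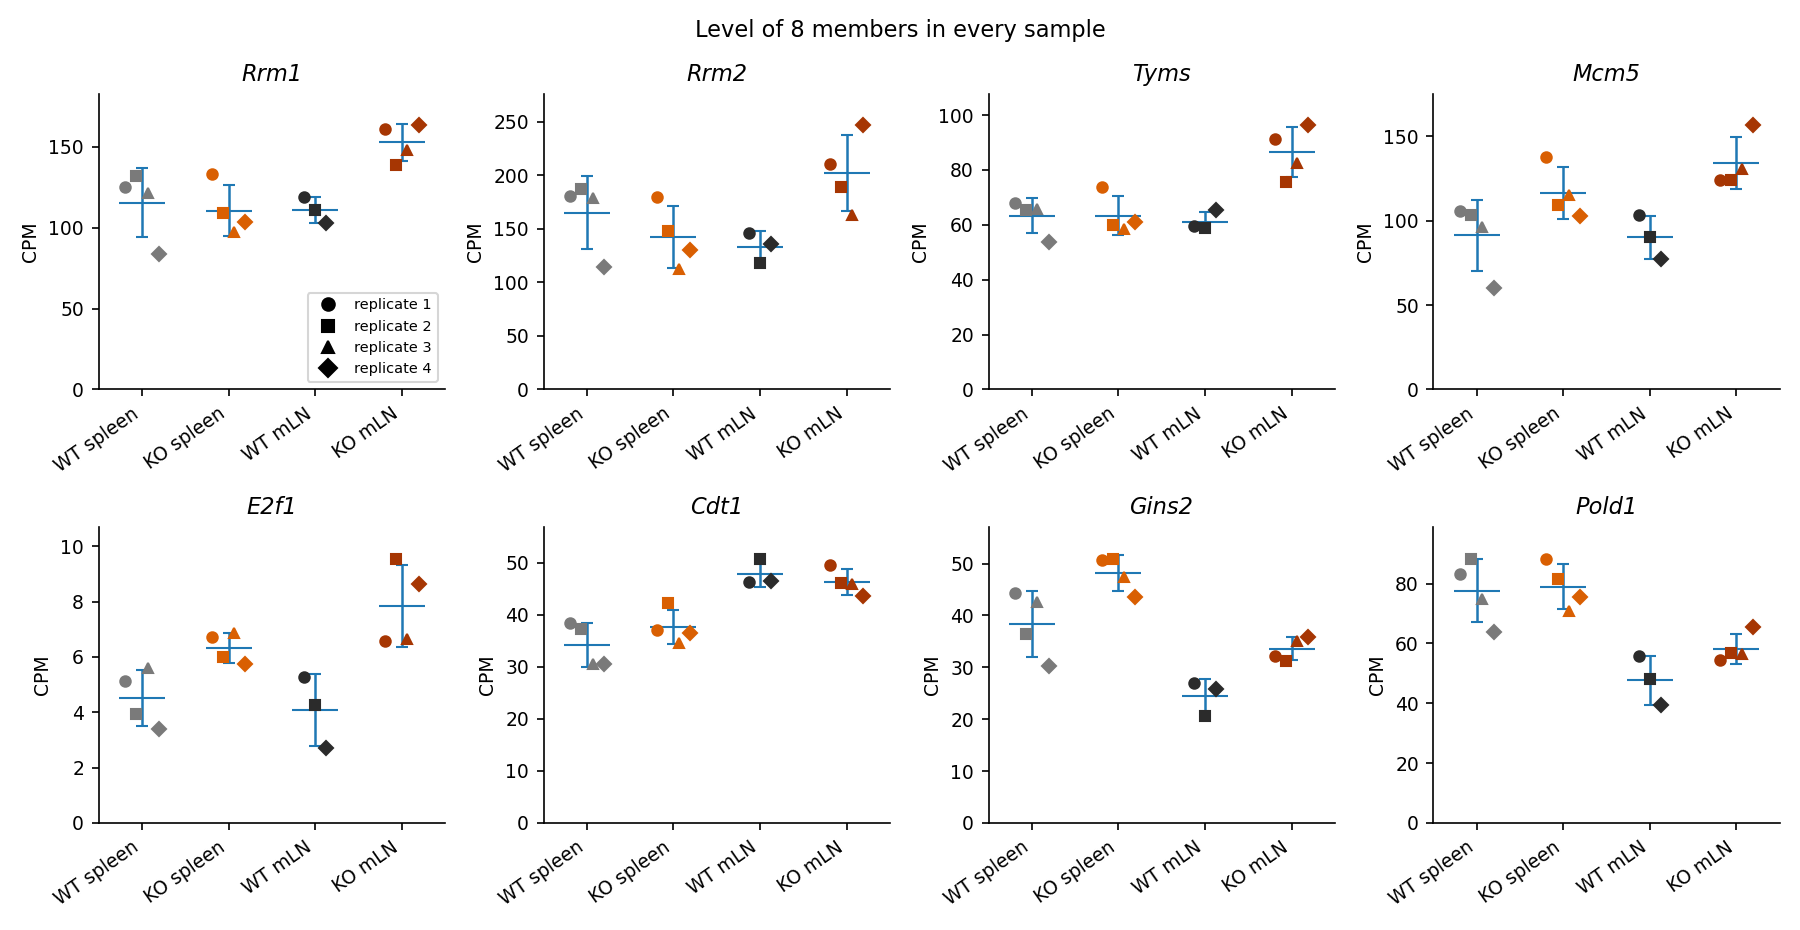
CPM (y axis, linear, from 0) of 8 members in every sample of the 4 groups; the shape gives the replicate number and the blue line and bars the mean and SD. Rrm1, Rrm2, Tyms, Mcm5 and E2f1 have all KO mLN samples above all WT mLN samples, Cdt1 is higher and Gins2 and Pold1 are lower in mLN than in spleen of the same genotype.

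The 3 chromatin genes summed to 159, 194, 186 and 125 CPM in WT spleen, 188, 160.2, 161 and 162 CPM in KO spleen, 146, 143 and 133 CPM in WT mLN and 179, 152, 154 and 161 CPM in KO mLN. Each KO mLN sum was above each WT mLN sum. Chaf1a, the large subunit of the assembly factor that places histones behind the fork, stood at 66.8, 72.7, 80.2 and 50.04 CPM in WT spleen, 70.9, 62.3, 64.3 and 57.8 CPM in KO spleen, 59.5, 56.1 and 54.9 CPM in WT mLN and 66.8, 54.8, 60.5 and 56.9 CPM in KO mLN. Its groups overlapped everywhere, and opposite-strand exons of Ubxn6 overlap 52.5% of its exonic bases. Uhrf1, which carries DNA methylation to the new strand, stood at 53.2, 69.4, 59.9 and 32.3 CPM in WT spleen, 69.9, 53.9, 60.9 and 65.6 CPM in KO spleen, 42.99, 42.4 and 32.3 CPM in WT mLN and 68.2, 54.7, 46.1 and 63.6 CPM in KO mLN. Each KO mLN sample of Uhrf1 was above each WT mLN sample. Chaf1b ranged over 36.1 to 51.8 CPM with overlap throughout.

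The G1/S regulators summed to 186, 199, 180.5 and 173 CPM in WT spleen, 199, 214, 182 and 216 CPM in KO spleen, 166, 129 and 162 CPM in WT mLN and 176, 192, 168 and 224 CPM in KO mLN, of which E2f2 made up more than the other 3 together. E2f1 (ENSMUSG00000027490, chr2:154559407-154569892, minus strand), an activating E2F factor, was scarce but was the one member whose KO samples lay above the WT samples in both organs. It stood at 5.13, 3.95, 5.59 and 3.41 CPM in WT spleen, 6.72, 5.99, 6.87 and 5.76 CPM in KO spleen, 5.27, 4.25 and 2.69 CPM in WT mLN and 6.58, 9.55, 6.64 and 8.65 CPM in KO mLN. E2f2, a related factor, stood at 128, 132, 119 and 128 CPM in WT spleen, 125, 146, 118 and 153 CPM in KO spleen, 98.1, 69.6 and 100 CPM in WT mLN and 104, 113, 84.3 and 119 CPM in KO mLN. Its mean was higher in spleen than in mLN in both genotypes, and all WT mLN samples were below all WT spleen samples. Ccne1, the cyclin that drives entry into S phase, stood at 24.3, 35.4, 28.6 and 18.9 CPM in WT spleen, 35.1, 30.5, 32.2 and 31.8 CPM in KO spleen, 34.2, 30.6 and 30.5 CPM in WT mLN and 34.05, 38.3, 41.2 and 46.02 CPM in KO mLN. Ccne2, its paralogue, stood at 29.2, 27.2, 27.4 and 22.1 CPM in WT spleen, 32.2, 31.7, 24.5 and 26.1 CPM in KO spleen, 28.1, 24.8 and 29.3 CPM in WT mLN and 31.9, 31.03, 36.1 and 49.8 CPM in KO mLN. The KO mLN samples of Ccne2 were above those of WT mLN, and Ccne1 overlapped by a narrow margin.

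The first question was whether loss of AMPKα1 changed these genes in T cells of the same organ. In spleen the members were close to even between genotypes. Of 48 members, 34 had a higher and 14 a lower fitted level in KO, with a median log2 fold change of 0.07 and a range of -0.29 to 0.49, against a median of -0.0041 over all 14254 genes tested. edgeR's quasi-likelihood test with Benjamini-Hochberg adjustment called 0 members at an adjusted p under 0.05, where 0.547% of all genes were called higher and 0.751% lower. DESeq2 also called 0, and 3 members higher and 2 lower (10.4%) had an unadjusted p under 0.05, beside 20.5% of all genes. Groups did not overlap for 1 member higher in KO, E2f1, and 1 lower, Pold2 (2.08% each), where 5.68% of all genes lay entirely above and 6.31% entirely below. The 3 members with the smallest p were Pold2, with a log2 fold change of -0.22 (SE 0.07, adjusted p = 0.123) in edgeR's test, Fen1, with -0.29 (SE 0.10, adjusted p = 0.136), and Gins2, with 0.34 (SE 0.12, adjusted p = 0.164). For E2f1 the log2 fold change was 0.49 (95% interval 0.05 to 0.93) and for Mcm5 0.36 (95% interval -0.005 to 0.72), both named after their values were seen. The count of positive members depended on single libraries. Without KO spleen replicate 1, the highest of its group, 27 members were positive and the median was 0.0095. Without WT spleen replicate 4, which was also high in erythroid markers, 23 members were positive and the median was -0.00872, and without both erythroid-high spleen samples the figures were 23 and -0.017.

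In mLN most members were higher in KO, without any passing the test. Of 48 members, 41 had a higher and 7 a lower fitted level in KO, with a median log2 fold change of 0.31 and a range of -0.23 to 0.93, against a median of -0.0038 over all 14359 genes tested. edgeR's quasi-likelihood test with Benjamini-Hochberg adjustment called 0 members, where 0.348% of all genes were called higher and 0.292% lower. At an unadjusted p under 0.05 there were 20 members (41.7%), all higher in KO, beside 15.7% of all genes in either direction. DESeq2 called 8 members higher at an adjusted p under 0.05 (Mcm5, Mcm6, Cdc6, Prim1, Rrm1, Rrm2, Tyms and Uhrf1). The shares of all genes called are edgeR's, so the DESeq2 count has no share beside it. Each KO sample was above each WT sample for 19 members (39.6%) and below for 1, Pold2, where 7.49% of all genes lay entirely above and 6.94% entirely below. By role, groups did not overlap upwards for 5 of 10 licensing genes, 2 of 8 helicase activation genes, 2 of 8 polymerase and primase genes, 3 of 10 clamp and strand joining genes, 4 of 5 nucleotide supply genes, 1 of 3 chromatin genes and 2 of 4 G1/S regulators. The median log2 fold change was 0.45 for nucleotide supply, 0.37 for the G1/S regulators, 0.33 for licensing, 0.31 for helicase activation, 0.31 for polymerases and primase, 0.20 for the clamp and strand joining genes and 0.06 for the chromatin genes.

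The 3 members with the smallest p in mLN were Rrm1, with a log2 fold change of 0.45 (SE 0.10, adjusted p = 0.0765) in edgeR's test, Mcm5, with 0.56 (SE 0.12, adjusted p = 0.0770), and Tyms, with 0.49 (SE 0.11, adjusted p = 0.0832). In CPM the group means were 153 ± 11.4 CPM (SD, n = 4) in KO against 111 ± 8.07 CPM (SD, n = 3) in WT for Rrm1, 134 ± 15.4 CPM (SD, n = 4) against 90.2 ± 12.9 CPM (SD, n = 3) for Mcm5, and 86.5 ± 9.18 CPM (SD, n = 4) against 61.2 ± 3.55 CPM (SD, n = 3) for Tyms. Further members are named after their values were seen. The largest fold change was that of E2f1, at 0.93 (95% interval 0.27 to 1.60), from levels of a few CPM. Rrm2, with 0.59 (95% interval 0.28 to 0.90), and Dut, with 0.32 (95% interval 0.09 to 0.55), completed the nucleotide supply genes without overlap. Of the licensing genes, Cdc6 had a log2 fold change of 0.62 (95% interval 0.20 to 1.04), Mcm6 of 0.40 (95% interval 0.19 to 0.61), Mcm3 of 0.34 (95% interval 0.08 to 0.60) and Mcm7 of 0.33 (95% interval 0.09 to 0.56). Prim1 had 0.60 (SE 0.18, adjusted p = 0.152), Cdc7 0.58 (95% interval 0.15 to 1.02), Uhrf1 0.56 (95% interval 0.20 to 0.92), Lig1 0.41 (95% interval 0.11 to 0.70) and Ccne2 0.43 (95% interval 0.03 to 0.82). Pold2 was the lowest member, at -0.23 (95% interval -0.46 to 0.01). The edgeR adjusted p of each of these lay between 0.0904 for Rrm2 and 0.343 for Pold2. The direction did not rest on 1 library: with each sample left out in turn, 39 to 43 members were positive, and edgeR called 0 members each time. Without the erythroid-high WT mLN replicate 4, 40 were positive with a median of 0.29. The summed CPM of the CD8 T and NK markers, in these samples mostly Eomes, was higher in KO in both organs. The single markers were split. Of those tested, 2 were higher and 2 lower in KO spleen, and 3 were higher and 2 lower in KO mLN. Of them edgeR called 1 higher and 0 lower in KO in each organ. Of all genes, 0.547% were called higher in KO spleen and 0.348% in KO mLN. The part of these markers in the result was not tested.

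**Figure D3:**
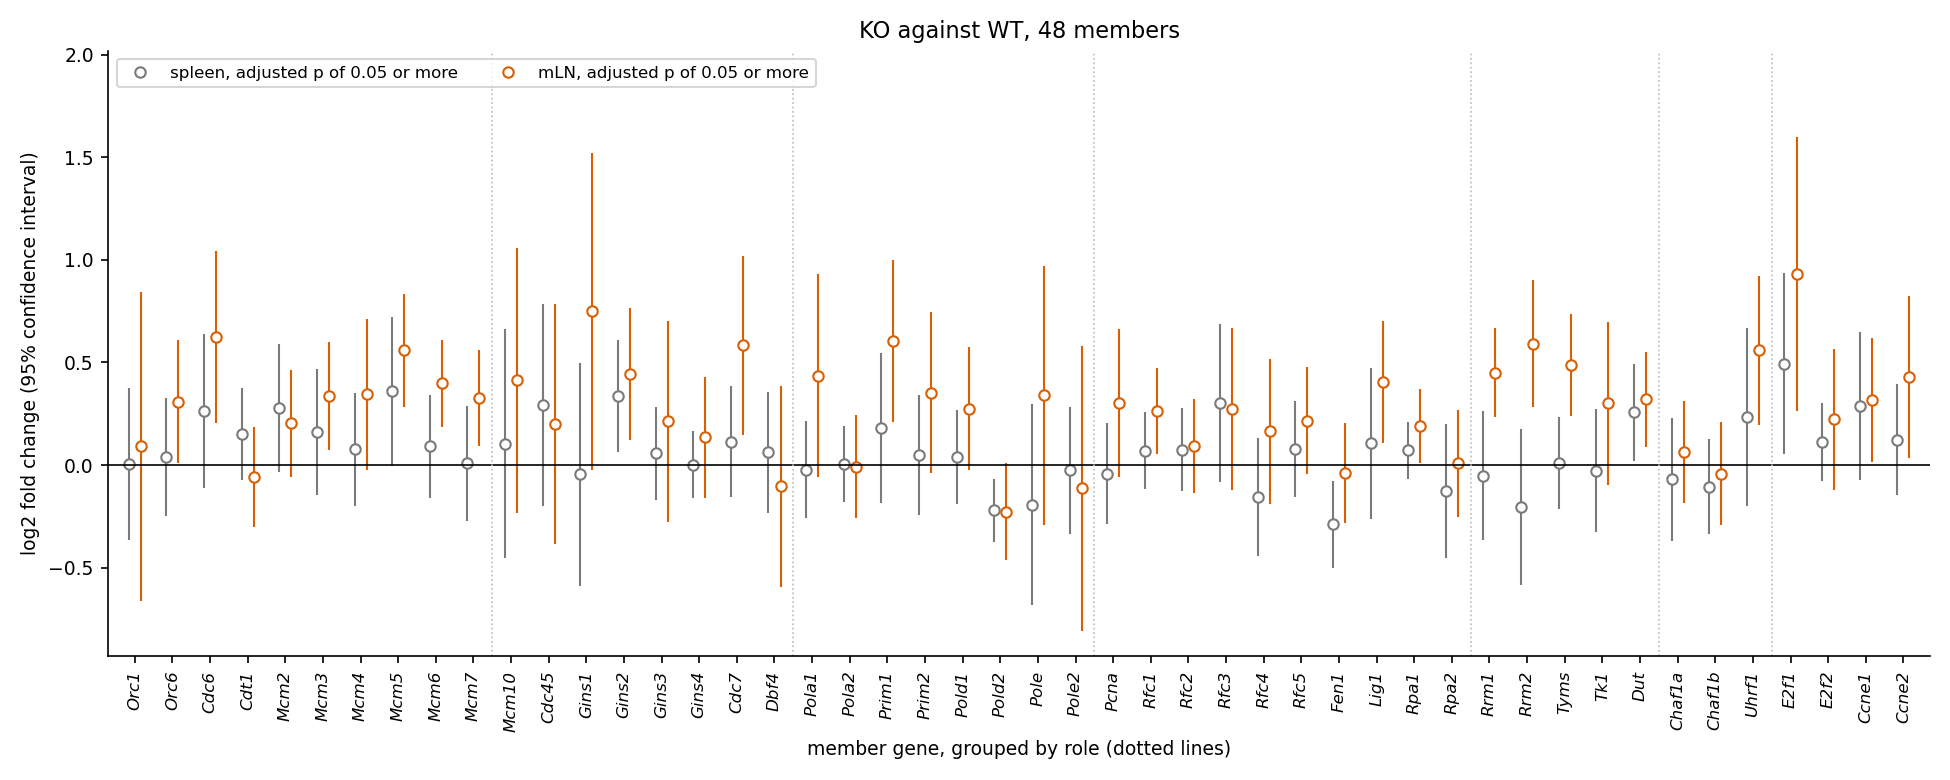
Log2 fold change of KO against WT (y axis, with the 95% confidence interval of edgeR's fit) of the 48 members in spleen (grey) and mLN (orange), with dotted lines between roles; open circles have an adjusted p of 0.05 or more, which holds for all points. In mLN 41 of 48 points lie above 0 with a median of 0.31, and in spleen 34 with a median of 0.07.

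The difference between the KO effect in mLN and that in spleen was fitted as an interaction term in a model of all 15 samples. The difference was positive for 40 of 48 members, meaning a more positive log2 fold change of KO against WT in mLN than in spleen. For a member that was lower in KO spleen, a positive difference need not mean a larger effect in mLN. The median difference was 0.22 on the log2 scale against -0.0053 over all 15438 genes tested. edgeR called 0 members, and 0.00% of all genes were called. DESeq2 called 0 members too, and 3 members (6.25%, beside 4.22% of all genes) had an unadjusted p under 0.05, which were Rrm2, with a difference of 0.79 (SE 0.25, adjusted p = 0.9998) in edgeR's test, Tyms, with 0.48 (SE 0.15, adjusted p = 0.9998), and Rrm1, with 0.50 (SE 0.19, adjusted p = 0.9998). The unadjusted 95% interval of the difference was 0.27 to 1.32 for Rrm2, 0.15 to 0.80 for Tyms and 0.10 to 0.90 for Rrm1. These intervals come from the test by which the 3 were picked. That they leave out 0 only restates the unadjusted p. The effect in mLN was thus not shown to differ from that in spleen for any single member after adjustment. This fit took all samples as independent. With the replicate number as a block, fitted without WT spleen replicate 3, 35 members were positive and the median was 0.17.

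The second question was how the organs differed within a genotype. In WT cells the members were split between the organs, with 28 higher and 20 lower in mLN, a median log2 fold change of 0.03 and a range of -0.66 to 0.59. With library size alone as the scaling, 22 were higher and the median was -0.016. edgeR called 1 member higher in mLN (2.08%), where 9.70% of all 14515 genes were called higher, and 3 members lower (6.25%), where 10.8% of all genes were called lower. Cdt1 was the member that rose, with a log2 fold change of 0.52 (SE 0.11, adjusted p = 0.0110) in edgeR's test. Pold1 fell, with -0.66 (SE 0.15, adjusted p = 0.0129), as did Gins2, with -0.61 (SE 0.17, adjusted p = 0.0312), and E2f2, with -0.47 (SE 0.13, adjusted p = 0.0326). Groups did not overlap for these and for Pole, which makes 1 member above (2.08%, beside 13.3% of all genes) and 4 below (8.33%, beside 18.2%). Samples with the same replicate number deviated together in WT, and with the replicate number as a block 7 members were called. Dut, Rfc2 and Cdt1 were then higher and Pold1, Gins2, E2f2 and Pole lower, from a fit to which WT spleen replicate 3 adds nothing for want of a partner. The shares of all genes given above are not from the fit with the block. The calls of E2f2 and Gins2 were fragile. Without WT spleen replicate 1, 2 or 3 in turn, 2 members were called each time, Gins2 and E2f2 being lost, without WT spleen replicate 4 6 were called, and without the 3 erythroid-high samples only Pold1 was called. Of the other cell types, 4 of 9 tested myeloid markers and 1 of 7 tested erythroid markers were called lower in WT mLN, and their part in these results was not tested.

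In KO cells the members were mostly higher in mLN than in spleen. Of 48 members, 41 were higher and 7 lower, with a median log2 fold change of 0.28 and a range of -0.52 to 0.71, against a median of 0.0073 over all 14240 genes tested. edgeR called 13 members higher (27.1%), where 11.4% of all genes were called higher, and 3 lower (6.25%), where 13.9% were called lower. Groups did not overlap for 11 members above (22.9%, beside 13.3% of all genes) and 2 below (4.17%, beside 15.3%). The 13 were Orc6, Cdc6, Cdt1 and Mcm7 of the licensing genes, Gins4, Prim1, the strand genes Lig1, Rpa1 and Rpa2, and Rrm1, Rrm2, Tyms and Dut of the nucleotide supply genes. The KO mLN samples are the same as in the comparison with WT mLN, so the counts of members higher there and here are not independent. Markers of other cell types moved as well: 7 of 8 tested myeloid markers were called lower in KO mLN, where they summed to 96.1 to 112 CPM against 236 to 683 CPM in KO spleen and Mpo and Elane were near 0, and 2 of 7 tested erythroid markers were lower. Of 5 tested CD8 T and NK markers, 1 was called higher in KO mLN and 0 lower. Their log2 fold changes ran from -1.14 to 4.43, with 2 positive and 3 negative. Of the 10 CD4 T cell markers, 5 were called higher and 1 lower, with sums of 10090 to 10540 CPM against 9146 to 9591 CPM. Their part in the result was not tested.

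The 5 members higher in KO mLN with the smallest p were Prim1, with a log2 fold change of 0.71 (SE 0.12, adjusted p = 0.00149) in edgeR's test, Orc6, with 0.57 (SE 0.10, adjusted p = 0.00214), Rrm1, with 0.47 (SE 0.10, adjusted p = 0.00503), Rpa1, with 0.29 (SE 0.06, adjusted p = 0.00581), and Tyms, with 0.45 (SE 0.10, adjusted p = 0.00817). Among the others called, named after their values were seen, Rrm2 had 0.51 (95% interval 0.19 to 0.83), Lig1 0.49 (95% interval 0.24 to 0.73), Cdc6 0.44 (95% interval 0.17 to 0.71), Mcm7 0.38 (95% interval 0.16 to 0.61), Gins4 0.35 (95% interval 0.13 to 0.56), Rpa2 0.32 (95% interval 0.12 to 0.53), Dut 0.31 (95% interval 0.13 to 0.49) and Cdt1 0.30 (95% interval 0.10 to 0.51). The 3 members that fell were the same as in WT: Gins2, with -0.52 (SE 0.09, adjusted p = 0.00181), Pold1, with -0.44 (SE 0.09, adjusted p = 0.00454), and E2f2, with -0.37 (SE 0.12, adjusted p = 0.0376). Cdt1 was called higher in mLN in both genotypes. The KO calls of E2f2 and Cdt1 were each lost in 6 of 15 alternatives, with adjusted p up to 0.123 and 0.144 in edgeR. The count was 9 to 19 over the fits without 1 of the samples, the lowest without KO spleen replicate 2, and Prim1, Orc6, Rrm1, Rpa1, Tyms, Lig1, Gins2 and Pold1 were called in each of those 8 fits. No member in any comparison was called with a further limit of 1 on the absolute log2 fold change.

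**Figure D4:**
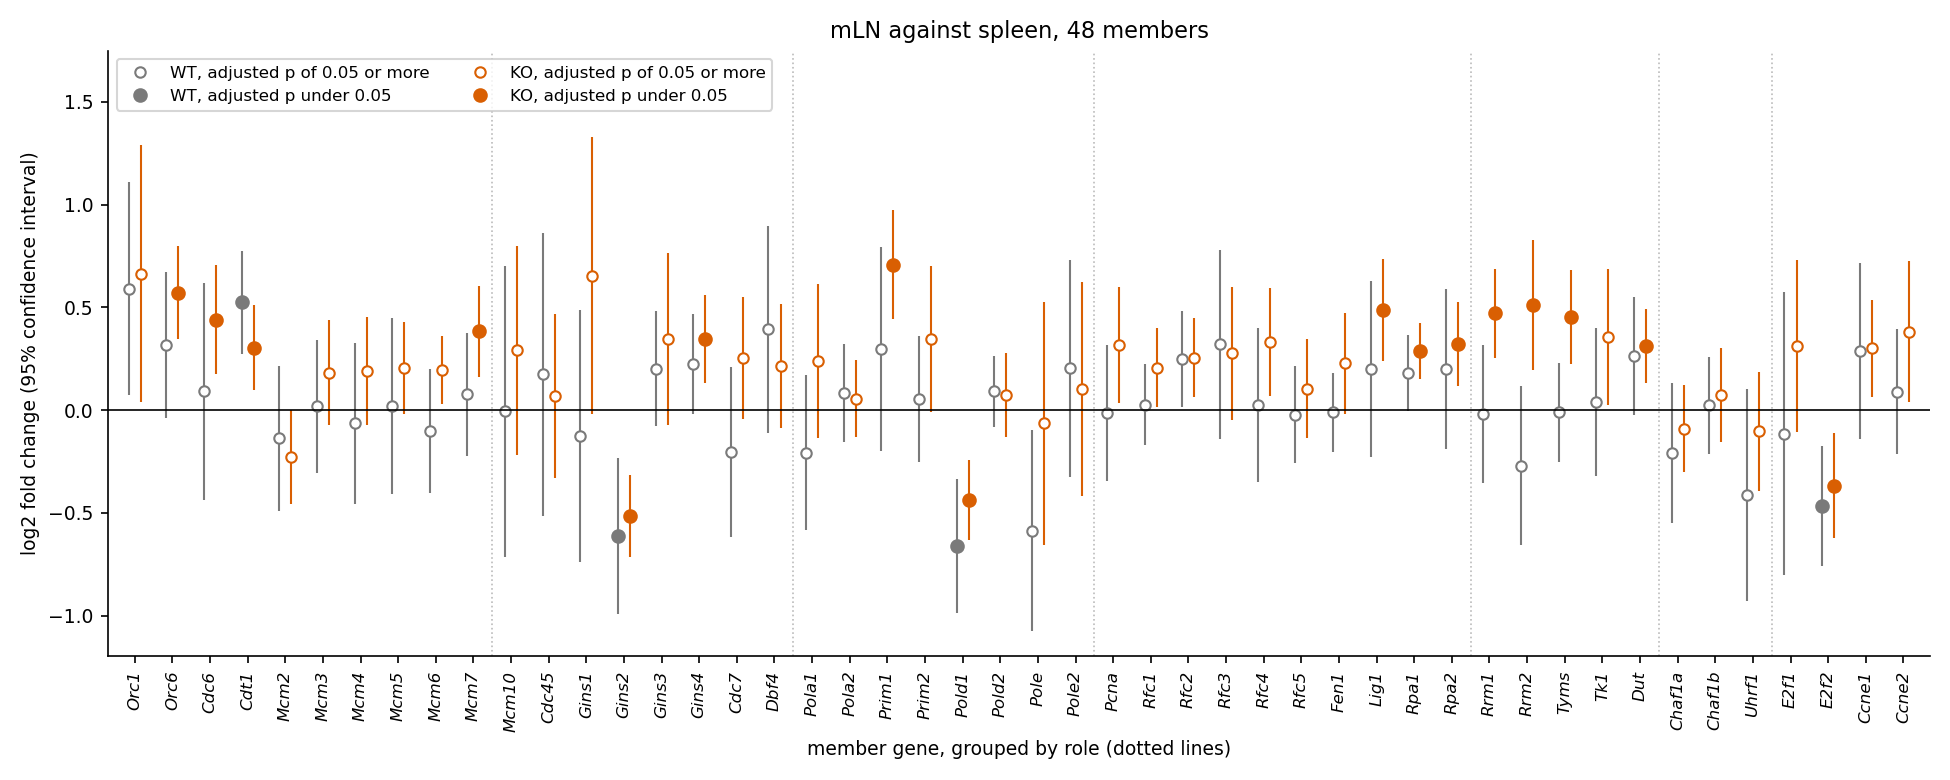
Log2 fold change of mLN against spleen (y axis, with the 95% confidence interval of edgeR's fit) of the 48 members in WT (grey) and KO (orange), with dotted lines between roles; filled circles have an adjusted p under 0.05. In WT 1 member is filled above and 3 below 0, and in KO 13 are filled above and 3 below, with Gins2, Pold1 and E2f2 below 0 in both.

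Genes with related tasks outside the 48 were counted in the same fits. Of 36 other replication fork and licensing genes, edgeR called 0 between genotypes in either organ, 4 higher and 2 lower in mLN of WT, and 10 higher and 2 lower in mLN of KO, with median log2 fold changes of -0.0013, 0.13, 0.05 and 0.13 in these 4 comparisons. Of all genes tested, 9.70% were called higher and 10.8% lower in mLN of WT, and 11.4% higher and 13.9% lower in mLN of KO. Pold4, a small subunit of polymerase delta, rose in mLN by a log2 fold change of 0.88 in WT and 0.97 in KO (adjusted p = 0.00378 and 0.00167, edgeR), while the catalytic subunit Pold1 fell. Rnaseh2a and Rnaseh2c, subunits of the enzyme that removes ribonucleotides from DNA, rose in WT by 0.49 and 0.41 (adjusted p = 0.00606 and 0.00660, edgeR). Gmnn, the inhibitor of CDT1, and Pole4 rose in KO by 0.57 and 0.37 (adjusted p = 0.00417 and 0.00473, edgeR).

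Of 40 other nucleotide synthesis and salvage genes, edgeR called 0 between genotypes in either organ, 8 higher and 2 lower in mLN of WT, and 9 higher and 4 lower in mLN of KO. The shares of all genes called were 9.70% higher and 10.8% lower in mLN of WT, and 11.4% and 13.9% in mLN of KO. The values that follow are for this list. Their median log2 fold change of KO against WT was -0.05 in spleen and -0.05 in mLN, with 15 of 40 positive in each organ, beside 0.45 in mLN for the 5 members that supply deoxynucleotides. Cad, which starts pyrimidine synthesis, was lower in mLN than in spleen by -1.24 in WT and -1.33 in KO on the log2 scale. Impdh1, of guanine nucleotide synthesis, was likewise lower, at -0.88 and -1.02, and the nucleoside diphosphate kinase Nme1 was higher, at 0.59 and 0.50. The edgeR adjusted p in WT and KO was 0.000390 and 7.74e-05 for Cad, 0.00288 and 0.000363 for Impdh1 and 0.00221 and 0.00143 for Nme1.

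Of 28 other G1/S control genes, 27 were tested. Between genotypes edgeR called 1 lower in KO spleen and 0 in mLN, and between organs 1 higher and 1 lower in WT and 5 higher and 2 lower in KO. Of all genes, 0.751% were called lower in KO spleen. Between organs, 9.70% of all genes were called higher and 10.8% lower in mLN of WT, and 11.4% and 13.9% in mLN of KO. Myc, a driver of T cell growth, stood at 72.1, 119.6, 81.1 and 127 CPM in WT spleen, 58.7, 61.8, 38.4 and 41.8 CPM in KO spleen, 128, 223 and 202 CPM in WT mLN and 108, 125, 80.6 and 80.1 CPM in KO mLN. All KO samples of Myc were below all WT samples within each organ, and mLN was higher than spleen in each genotype. Its log2 fold change was -0.98 (SE 0.20, adjusted p = 0.0453) for KO against WT in spleen, 0.92 (SE 0.23, adjusted p = 0.0198) for mLN against spleen in WT and 0.98 (SE 0.18, adjusted p = 0.00237) in KO by edgeR's test. The first of these calls was lost in 10 of 16 alternatives, with adjusted p up to 0.131 in edgeR. Among them were the fits without any 1 KO spleen sample, those without WT spleen replicate 2 or 4, and fits that kept all samples. The call in WT was lost in 4 of 15 alternatives, among them those without WT spleen replicate 1 or WT mLN replicate 2 or 4. Cdkn2d and Tfdp2, next in p in spleen, had -0.32 and -0.39 (adjusted p = 0.0719 and 0.102, edgeR). In mLN against spleen, Skp2 had -0.59 and Ccnd3 -0.46 in WT (adjusted p = 0.0440 and 0.0538, edgeR), the call of Skp2 being lost in 10 of 15 alternatives, without any 1 of the 7 samples among them, with adjusted p up to 0.135, and Ccnd1 1.28 and Ccnd3 -0.44 in KO (adjusted p = 0.00873 and 0.00400, edgeR).

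Of 20 mitosis genes, 17 had a higher fitted level in KO than in WT in mLN and 6 of 20 in spleen, with median log2 fold changes of 0.39 and -0.06. In mLN, where 0.348% of all genes were called higher in KO, edgeR called 1, the spindle motor Kif11. It stood at 37.7, 27.5 and 23.8 CPM in WT mLN and 58.8, 70.05, 54.3 and 67.96 CPM in KO mLN. Its log2 fold change was 1.07 (SE 0.17, adjusted p = 0.0326) in edgeR's test, and the call was lost without WT mLN replicate 2 or 4 or KO mLN replicate 2, 3 or 4, with adjusted p up to 0.136 in edgeR. Top2a, which untangles the copied chromosomes, had 0.70 (SE 0.17, adjusted p = 0.0924), and Kif20a 0.39 (SE 0.10, adjusted p = 0.120). Between organs 2 mitosis genes were called higher in mLN of WT and 8 in mLN of KO, and 0 were called lower. Of all genes, 9.70% were called higher in mLN of WT and 11.4% in mLN of KO. Birc5 had 0.71 in WT and 0.89 in KO, Cdc20 0.64 and 0.997, and Kif11 -0.53 and 0.60, with edgeR adjusted p of 0.0178, 0.000754, 0.0265, 0.000327, 0.132 and 0.00521. In WT the calls of Cdc20 and Birc5 were lost in 6 and 3 of 15 alternatives, both of them without WT mLN replicate 1 or 4, and that of Cdc20 also without WT mLN replicate 2 or WT spleen replicate 1 or 3, with adjusted p up to 0.102 and 0.117. The interaction was positive for 19 of 20 mitosis genes, with a median of 0.39, and edgeR called 0 of them, with 7 (35%, beside 4.22% of all genes) at an unadjusted p under 0.05.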

How the data were processed

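RNA of 15 samples of donor CD4+ T cells was sequenced by the study as 75-base single-end reads after NEBNext Single Cell/Low Input library preparation. Per the study's methods, reads were aligned with STAR 2.6.1a to GRCm38 with GENCODE M23 annotation, and the authors deposited STAR gene counts, 1 file a sample. The labels also name bcl2fastq 2.19.1.403, RSEM and DESeq2 1.22.2. The deposited values are raw counts of whole reads, and whether the column taken used the strand is not given in the sources used here, so opposite-strand neighbours can share reads. Entries without a gene took 58.4% to 63.4% of uniquely aligned reads and were left out of library sizes and tests. Depth was 9363940 to 11283439 counted reads a sample.

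Symbols and coordinates came from GENCODE vM21 on GRCm38, matched by Ensembl gene ID. Levels are CPM, counts per 1000000 counted reads. Between groups, edgeR 4.0.16 (R 4.3.3) was run on the counts of the 2 groups compared, with filterByExpr, TMM factors (0.9689 to 1.044 over all samples) and the quasi-likelihood test, and p-values were adjusted by Benjamini-Hochberg over all genes tested. A call is an adjusted p under 0.05 with no fold limit. The interaction used all 15 samples. The script was tested on simulated data. The alternatives were DESeq2 1.42.0, other scalings and filters, a fit of all samples, a fold limit, the replicate number as a block and each sample left out, and the fit without samples above 500 CPM of erythroid markers was added after seeing the data. Figures were drawn with matplotlib 3.10.9.

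Members and gene lists were chosen with earlier results of these data known, so no pattern in them is independent support. All 48 members were counted. Values per sample are given for a set of 28 that spans all roles and for members named by their p. Fold changes with SE and adjusted p are given for the 5 called members with the smallest p in each direction, or for the 3 with the smallest p where fewer than 3 were called. Other lists are given by counts, median and, where a gene was called, the 3 with the smallest p. Orc6, Pold2 and Rpa1 entered by p, and Mcm3, Mcm6, Mcm7, Gins4 and Dut were added after their values were seen.

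Nothing in the labels ties equal replicate numbers to 1 recipient. Over 12014 genes, deviations of spleen and mLN samples with the same number from their group means correlated with r of 0.361, 0.280 and 0.445 in WT, over the limit of 0.1 used for pairing, and with r of 0.130, 0.248, 0.00772 and 0.292 in KO, where the numbers were not taken to pair.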

Additional observations from a re-analysis of the deposited data

Results flagged for a closer look

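In 16 of 168 groups of 4 samples tested, 1 sample lay far from the other 3, with a gap to the nearest over Dixon's 95% critical value. Chance gives about 1 in 20 such groups, and members of 1 sample are not independent. WT spleen replicate 4 was low in 8 of them. Of the helicase subunits, it stood at 90.2 CPM for Mcm2 against 131 to 139 CPM, 101 CPM for Mcm3 against 145 to 149 CPM, 122 CPM for Mcm4 against 170.3 to 179 CPM and 239 CPM for Mcm6 against 327 to 335 CPM. It also stood at 24.8 CPM for Rfc4 against 34.1 to 35.9 CPM and at 114 CPM for Rrm2 against 179 to 187 CPM. Its summed licensing genes were at 752 CPM against 1069 to 1092 CPM, and its summed nucleotide supply genes at 329.8 CPM against 467 to 491 CPM. The same sample held 919 CPM of erythroid markers, and their part in the low values was not tested.

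KO spleen replicate 1 was high in 5 groups. It stood at 362 CPM for Mcm6 against 307 to 316 CPM, at 70.9 CPM for Rfc5 against 51.6 to 54.1 CPM and at 73.9 CPM for Tyms against 58.5 to 61.0 CPM. Its summed licensing genes were at 1265 CPM against 1020 to 1060 CPM, and its summed chromatin genes at 188 CPM against 160.2 to 162 CPM. KO spleen replicate 3 stood at 32.9 CPM for Gins4 against 36.2 to 36.8 CPM. KO mLN replicate 4 stood at 59.2 CPM for Cdc7 against 38.3 to 40.6 CPM. The summed licensing genes of KO mLN replicate 2 were at 1141 CPM against 1268 to 1283 CPM.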

How the results depend on the processing

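At 9363940 to 11283439 reads a sample, the scarcest members, Gins1, E2f1 and Orc1, rest on 810, 916 and 1033 reads over all samples, and 3 or 4 samples a group limit the precision. No alternative turned the sign of any named gene's fold change. Without the filter on low counts, 3 members were called for KO against WT in spleen (Mcm2, Mcm5 and Gins2), 9 in mLN and 1 in the interaction (Rrm2). In mLN, DESeq2 called 8 and the fit of all 15 samples 1 (Tyms). The cause of these gains was not tested. The shares of all genes called given above are those of the main edgeR fits and do not apply to the alternatives counted here. For mLN against spleen in WT, leaving out each sample in turn gave 2 to 6 calls and leaving out the 3 erythroid-high samples 1, and in KO leaving out each sample gave 9 to 19 calls beside 16. With a limit of 1 on the absolute log2 fold change, 0 members were called in WT and 0 in KO, since no member reached that size. With the replicate number as a block, 7 members were called between organs in WT, 17 in KO, 0 between genotypes in spleen, 0 in mLN and 0 in the interaction. Same-numbered KO samples of spleen and mLN correlated best with each other for replicates 1, 2 and 4 and not for 3, and same-numbered WT and KO samples correlated with r of -0.298 to 0.168 in spleen and -0.0739 to 0.00476 in mLN.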
